A study of Balaenoptera physalus with 6 samples.

Results

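TLX1, also known as HOX11, encodes a homeobox transcription factor, and its listed cytosines in fin whale skin were less methylated in the samples with the high contaminant load. The sites described here are those that the authors listed as different between groups and whose promoter, exon or intron name was TLX1, together with listed sites with no gene name within 20000 bases of them on the same scaffold. These were 46 of 37640 listed sites: 28 CpG sites and 1 CHH site in TLX1, and 16 CpG sites and 1 CHH site with no gene name. No listed CHG site met the rule. All 29 TLX1 sites were given as intron sites, and the lists held none in its promoter or exons. Positions are the starts on scaffold NW_006728682_1 as the deposited tables give them, and the sources used here name neither the assembly nor whether starts count from 0 or from 1. In RefSeq's fin whale annotation (mBalPhy2.hap1.1), from which only names and gene order were taken, the protein-coding neighbours of TLX1 are LBX1 and KAZALD1.

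TLX1 is known from mouse as a gene that the embryo needs to form a spleen, from neurons of the dorsal spinal cord, where it acts with its paralogue TLX3, and from human T-cell leukaemia, in which it can be switched on out of place. Genes for developmental transcription factors often lie in CpG-rich DNA, in which most CpGs of normal adult tissue carry little methylation. In a CpG, the cytosines of both strands are usually methylated together, because maintenance methylation copies the mark across the strands after replication. Outside CpG, that is in the CHG and CHH contexts, where H is any base but G, methylation is usually scarce in mammalian tissues such as skin.

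Skin DNA of Balaenoptera physalus was cut with MspI, treated with bisulfite and sequenced (reduced representation bisulfite sequencing). The high OC group held 3 samples with a high organochlorine concentration (titles beginning BPT) and the low OC group 3 samples with a low one (titles beginning BPL). The labels do not explain the title prefixes, which split the samples as contaminant load does, so the 2 cannot be told apart, and they give neither age nor sex. They also do not say whether each sample is a different animal. In whole skin, a different mix of cell types and a different methylation within a cell type cannot be told apart. The members were selected on the authors' difference and p-value between the same 6 samples, so levels are given below as a description, with no test. In the authors' deposited table the p-values of the 28 TLX1 CpG sites ran from 0.00134 to 0.0441, not adjusted for the number of sites. The highest p among all listed CpG sites was 0.05 and the smallest absolute difference 10 percentage points, so these bounds mark the edge of the list. TLX1 sites beyond these bounds were not analysed here.

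Averaged over the 28 listed CpG sites, TLX1 was methylated at 15.3% ± 6.70 (SD, n = 3) in high OC and at 46.9% ± 5.17 (SD, n = 3) in low OC skin, a difference of -31.6 percentage points. The high OC samples stood at 8.54%, 21.9% and 15.6% (replicates 1 to 3), and the low OC samples at 48.5%, 51.1% and 41.1%. No high OC sample reached the lowest low OC sample. All 28 sites were lower in high OC skin, and at all 28 the groups did not overlap. The second count follows from how sites were listed, since 99.5% of all 32682 listed CpG sites had groups that did not overlap. For direction, 49.2% of all listed CpG sites, 49.5% of those with an intron name and 51.1% of those on this scaffold were lower in high OC skin. The TLX1 sites are close together and share reads, so their 28 directions are not 28 separate observations. Differences of single sites ran from -56.3 to -20.0 points, with a median of -31.7 points, against a median of -19.3 points over all listed CpG sites that were lower in high OC skin. The authors' deposited table classed 8 of the 28 as strongly hypomethylated, a class for lower sites only. It held 2164 sites, or 6.62% of all listed CpG sites, where 16082 listed CpG sites were lower in high OC skin.

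**Figure D1:**
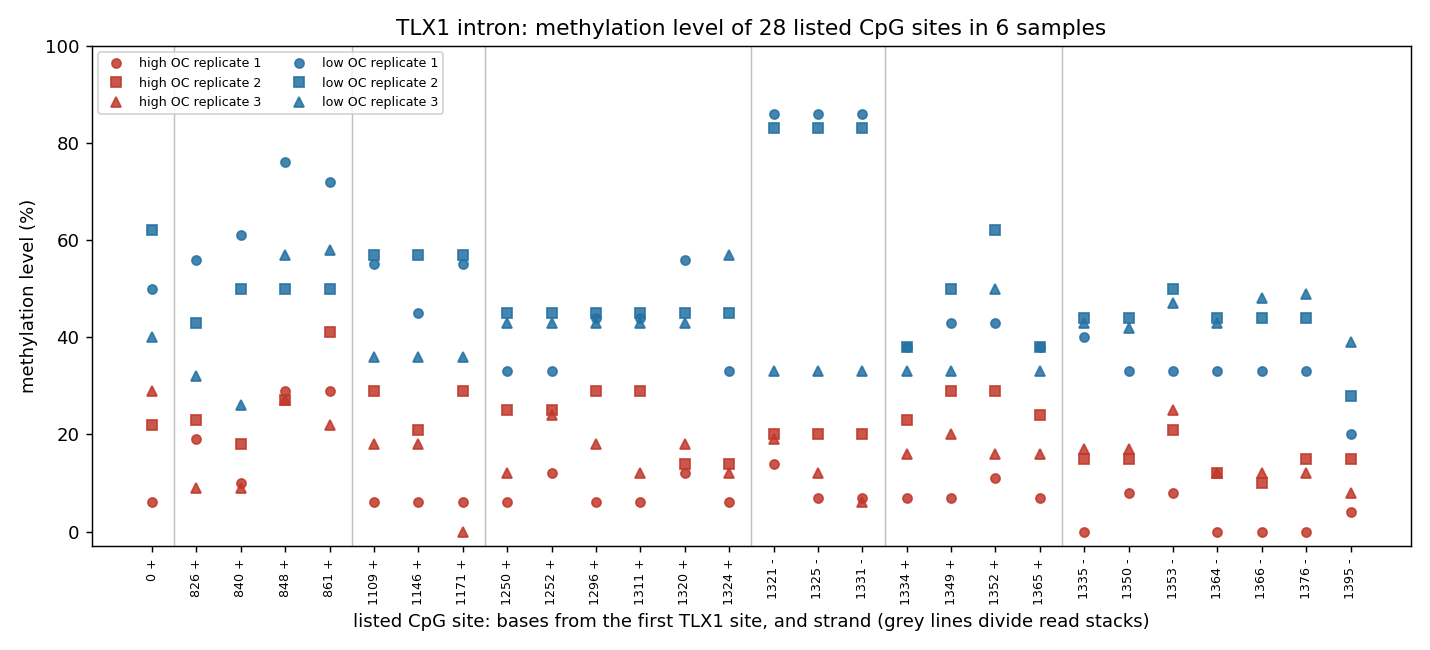
Methylation level (y axis, %) of the 28 listed TLX1 CpG sites in each of the 6 samples, with sites on the x axis given as bases from the first TLX1 site and strand. Red marks are high OC and blue marks low OC samples, and grey lines divide groups of sites that share coverage. At every site the 3 red marks lie below the 3 blue marks.

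In high OC skin the samples often kept their order along the intron, while in low OC skin the order changed between sites. High OC replicate 1 was the lowest of its group at 22 of 28 sites, with a median level of 7%, and 4 of its sites were at 0%. High OC replicate 2 was the highest of its group at 20 sites, with a median of 21.5%. High OC replicate 3 had a median of 16%. In low OC skin the medians were 43.5%, 45% and 42.5%, and the lowest sample of the group was replicate 3 at 15 sites, replicate 1 at 11 and replicate 2 at 2. The highest was replicate 2 at 14 sites, replicate 1 at 8 and replicate 3 at 4. Sites close together share reads, so these counts do not come from 28 separate observations.

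The 28 sites lay within 1396 bases, from 4451443 to 4452838, and fell into 7 sets of sites with shared coverage. Sites on the same strand, at most 150 bases apart, whose coverage was equal within 1 read in all 6 samples, or doubled within 2 reads, were counted as 1 read stack, since such sites are likely to be read from the same fragments. In 3 of these stacks, 10 of the 28 sites had doubled coverage. In the stack at 4452777 to 4452808 on the plus strand, the first site had 28, 22 and 25 reads in high OC and 21, 8 and 18 in low OC samples, while the site at 4452792 had 56, 45 and 50 reads and 42, 16 and 36 reads. In that stack only the first site had single coverage. In the stack at 4452778 to 4452838 on the minus strand the first and the last site had single coverage and the 5 between them doubled coverage. Why coverage doubled was not tested. The 7 TLX1 sites at which no sample fell below 20 reads were all of the doubled kind. With doubled coverage divided by 2, no sample fell below 10 reads at 14 sites, 0 sites reached 20 reads in all samples, and the largest minimum over the samples was 15 reads.

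**Figure D2:**
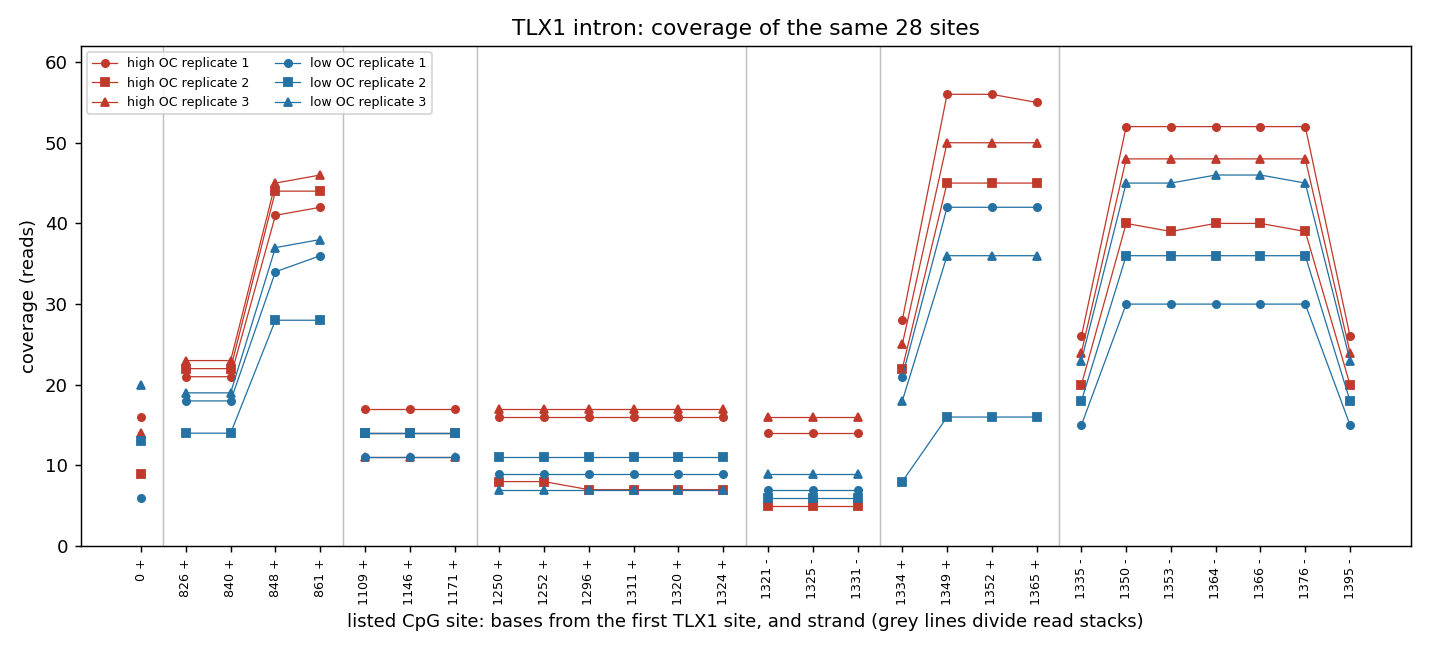
Coverage (y axis, reads) of the same 28 CpG sites in the 6 samples, in the same order and with the same colours as the plot of levels. Lines join sites of 1 read stack, and within 3 of the 7 stacks coverage steps up to about double, as from 28 to 56 reads in high OC replicate 1.

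Coverage also differed between the groups. At 8 of the 28 sites every high OC sample had more reads than every low OC sample, and at 0 sites the reverse held, where all listed CpG sites gave 6.64% and 2.27%. These 8 sites lay in a pair of stacks. Mean coverage over the 28 sites was 29.9, 22.8 and 28.5 reads in high OC and 19.5, 17.7 and 23.0 reads in low OC samples. These means use coverage as deposited, so the 10 sites with doubled coverage raise them. The part of coverage in the difference of levels was not tested.

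In the order of the scaffold, the first TLX1 site, at 4451443 on the plus strand, stood alone. Its levels were 6%, 22% and 29% in high OC and 50%, 62% and 40% in low OC skin, on 6 to 20 reads. The groups did not overlap there, though their nearest samples were 29% and 40%.

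A stack of 4 plus-strand sites followed at 4452269 to 4452304, with mean levels of 21.8%, 27.3% and 16.8% in high OC and 66.3%, 48.3% and 43.3% in low OC skin. Low OC replicate 1 was the highest sample. Group means were 21.9% ± 5.25 (SD, n = 3) and 52.6% ± 12.1 (SD, n = 3).

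The longest run of neighbouring TLX1 sites, with gaps of at most 100 bases, came next and held 23 sites in 287 bases, at 4452552 to 4452838, in 5 stacks. Its first stack, 3 plus-strand sites at 4452552 to 4452614, had mean levels of 6%, 26.3% and 12% against 51.7%, 57% and 36%. High OC replicate 2 and low OC replicate 3 came nearest to each other. The next stack, 6 plus-strand sites at 4452693 to 4452767, had 8%, 22.7% and 16% against 40.5%, 45% and 45.3%. In this stack the means of the 3 low OC samples lay within 5 points of each other, on 7 to 11 reads. At single sites the low OC levels ran from 44%, 45% and 43% at 4452739 to 33%, 45% and 57% at 4452767.

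The largest differences stood in the thinnest stack, 3 minus-strand sites at 4452764, 4452768 and 4452774. Levels at 4452774 were 7%, 20% and 6% in high OC and 86%, 83% and 33% in low OC skin, a difference of -56.3 points. At 4452768 and 4452764 the differences were -54.3 and -49.7 points. Within each low OC sample the methylated count was the same at the 3 sites, with 6 of 7 reads in replicate 1, 5 of 6 in replicate 2 and 3 of 9 in replicate 3. Low OC replicate 3 thus stood far below its group, and the SD of the low OC levels was 29.8 points. At 4452764 the 95% Wilson intervals ran from 48.7% to 97.4% for low OC replicate 1 and from 3.62% to 62.4% for high OC replicate 2, which had 1 of 5 reads methylated, so these intervals overlapped. Such intervals cover counting error only.

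The last pair of stacks overlapped on opposite strands, and the minus-strand stack reached further. The 4 plus-strand sites at 4452777 to 4452808 had mean levels of 8%, 26.3% and 17% in high OC and 40.5%, 47% and 37.3% in low OC skin. The 7 minus-strand sites at 4452778 to 4452838 had 2.86%, 14.7% and 14.7% against 32.1%, 42.6% and 44.4%. By these means high OC replicate 1 was lowest on both strands. Low OC replicate 3 was the lowest of its group on the plus strand and the highest on the minus strand. The means of the 2 strands are over different sites, however. At minus-strand sites with a listed partner, low OC replicates 2 and 3 had 44% and 43% (4452778) and 44% and 42% (4452793). They had 50% and 47% at 4452796, and 44% and 48% at 4452809. The sites 4452792 and 4452795 on the plus strand tied for the highest coverage. Levels at the first were 7%, 29% and 20% against 43%, 50% and 33%, and at the second 11%, 29% and 16% against 43%, 62% and 50%. The last site, 4452838 on the minus strand, shared the smallest difference of the run, -20.0 points, with the site at 4452695, and its levels were 4%, 15% and 8% against 20%, 28% and 39%. Stack means differed between the groups by -53.4 to -24.5 points over the 7 stacks.

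Reads of the opposite strands come from separate strands of the fragments, and 6 TLX1 CpGs were listed on both. These 12 sites were 12 of 28, where 4.57% of all listed CpG sites had a listed partner on the other strand. At each of the 6 CpGs both strands were lower in high OC skin, which follows from all 28 listed sites being lower. At 4452795 and 4452796 the high OC means were 18.7% and 18.0%, and the low OC means 51.7% and 43.3%. At 4452808 and 4452809 the high OC means were 15.7% and 7.33%, and the low OC means 36.3% and 41.7%. At the 4 CpGs of the last pair of stacks, the strands of a sample differed by at most 15 points. At the CpG 4452767 and 4452768, by contrast, the minus strand of low OC replicate 1 was 53 points above its plus strand, on 7 and 9 reads, and that of low OC replicate 3 was 24 points below. Over all 10 minus-strand sites of TLX1 the means were 11.7% ± 6.09 (SD, n = 3) compared with 48.0% ± 6.85 (SD, n = 3), and over the 18 plus-strand sites 17.4% ± 7.27 (SD, n = 3) compared with 46.3% ± 4.42 (SD, n = 3).

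**Figure D3:**
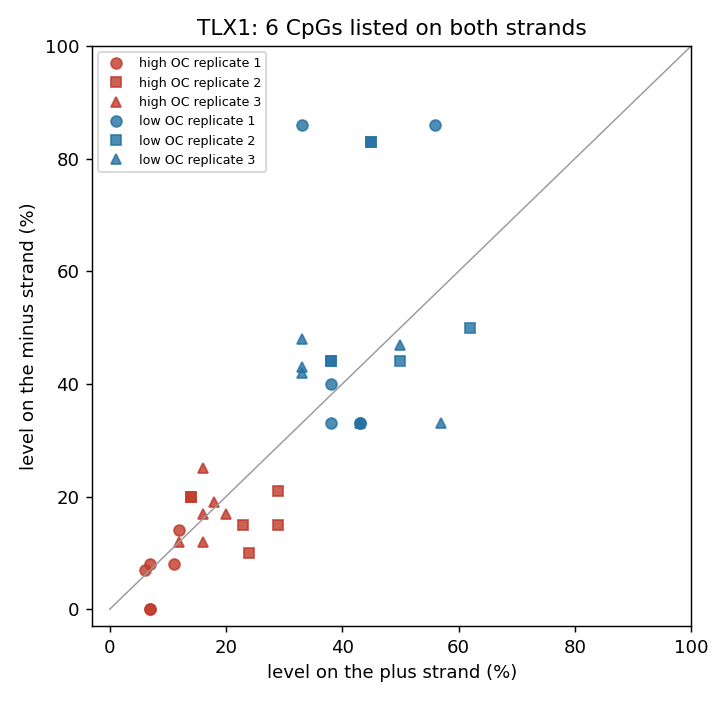
Level on the minus strand (y axis, %) against level on the plus strand (x axis, %) for the 6 TLX1 CpGs listed on both strands, 1 mark per CpG and sample, red for high OC and blue for low OC. The grey line marks equal levels. The marks farthest above the line are low OC replicates 1 and 2 in the stack with the fewest reads, at 86% and 83% on the minus strand.

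The CHH site of TLX1, at 4452534 on the plus strand, had the coverage of the CpG stack that starts 18 bases further on. Its levels were 6%, 29% and 0% in high OC and 36%, 57% and 36% in low OC skin, or 11.7% ± 15.3 (SD, n = 3) compared with 43.0% ± 12.1 (SD, n = 3). In high OC replicate 3, 0 of 11 reads were methylated, which allows a level of up to 27.3%. The CpG site at 4452614 in the same stack had the same level as the CHH site in each sample but low OC replicate 1, which was at 55% there. Of all 3216 listed CHH sites, 19.1% had a mean over the 6 samples as high as this site or higher, and 49.8% were lower in high OC skin. The sequence around the site was not used here, so whether these whales carry a CpG at this position was not tested.

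The listed sites with no gene name lay on 1 side of TLX1 only, from 4440886 to 4448148. It is called the LBX1 side here after RefSeq's gene order, since the KAZALD1 site lay on the other side. No listed CpG site placed LBX1 on this scaffold. Of the 16 CpG sites, 14 were lower and 2 higher in high OC skin, beside 51.9% lower among all listed CpG sites with no gene name. Their mean levels were 17.6%, 19.1% and 16.1% in high OC and 39.6%, 41.4% and 32.6% in low OC skin, or 17.6% ± 1.50 (SD, n = 3) compared with 37.9% ± 4.63 (SD, n = 3). The 14 lower sites had a median difference of -25.8 points and averaged 15.5% ± 2.00 (SD, n = 3) compared with 41.8% ± 4.71 (SD, n = 3).

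The lower sites nearest to TLX1 formed a group of 6 CpG sites and 1 CHH site at 4447978 to 4448148. The largest difference was at 4448147 on the plus strand, with 22%, 42% and 14% in high OC and 50%, 75% and 86% in low OC skin, on 7 to 18 reads. Its partner on the minus strand, 4448148, had 15%, 30% and 23% against 62%, 68% and 39%, so the 2 strands of low OC replicate 3 differed by 47 points. At 4447981 levels were 23%, 10% and 7% against 67%, 56% and 29%. The groups did not overlap at these 3 sites, but at each a low OC sample came within 10 points of a high OC sample. The CHH site at 4448062 shared the coverage of the sites at 4447978 to 4447984 and was more methylated than they were, at 42.7% ± 3.79 (SD, n = 3) compared with 66.0% ± 10.8 (SD, n = 3), and 14.4% of listed CHH sites had a mean as high or higher.

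A further run of 5 lower sites at 4447028 to 4447082 averaged 9.87% ± 0.902 (SD, n = 3) compared with 29.2% ± 1.78 (SD, n = 3). Single lower sites at 4445417, 4442309 and 4441271 followed towards LBX1. At 4445417 no methylated read was seen in the 3 high OC samples, on 8, 6 and 7 reads, and the low OC samples had 25%, 17% and 17%. At that depth a count of 0 allows levels of up to 37.5%, 50% and 42.9% in the high OC samples, so no high OC sample by itself excludes the levels seen in low OC skin.

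The 2 higher sites were the farthest from TLX1. At 4440886 on the minus strand levels were 47%, 38% and 57% in high OC and 11%, 23% and 12% in low OC skin. At 4440950 on the plus strand they were 19%, 22% and 11% against 7%, 8% and 0%, on 30 to 54 reads. Direction thus turned between 4440950 and the next listed site, 4441271, which had 4%, 0% and 7% against 12%, 27% and 36%. The site at 4440886 is 10557 bases from TLX1 and the last inside the distance limit on that side. The nearest site with no gene name outside the limit lay 66209 bases away on the LBX1 side, at 12.7% ± 6.66 (SD, n = 3) compared with 0% in all low OC samples, and 63717 bases away on the KAZALD1 side, at 50.7% ± 6.03 (SD, n = 3) compared with 72.3% ± 4.16 (SD, n = 3).

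**Figure D4:**
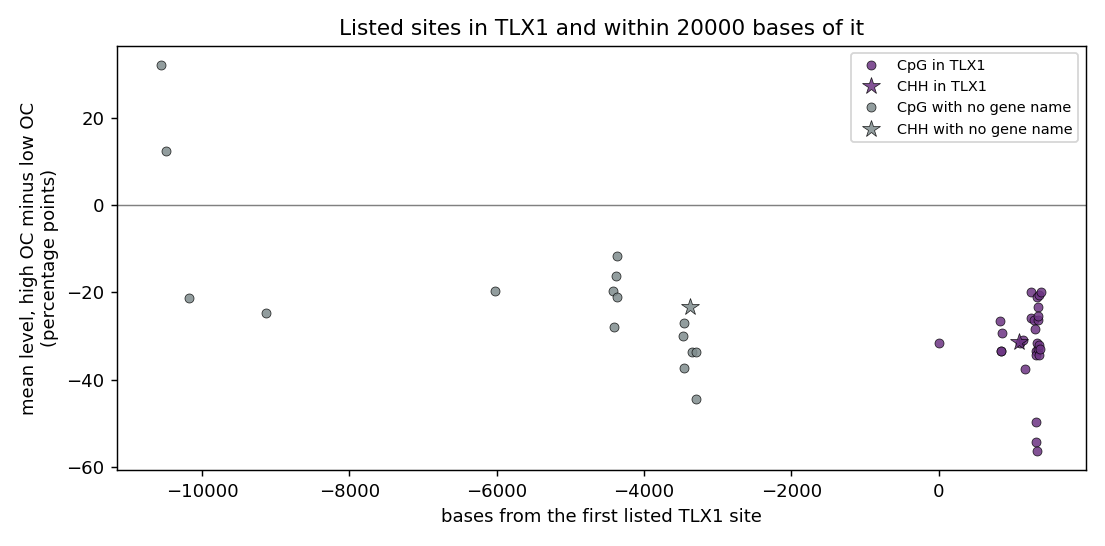
Difference of mean levels, high OC minus low OC, in percentage points (y axis) for the 46 listed sites, by distance in bases from the first listed TLX1 site (x axis). Circles are CpG and stars CHH sites, purple in TLX1 and grey with no gene name. All points but the 2 at the far left lie below 0.

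The genes on either side of TLX1 had few listed CpG sites. LBX1, a homeobox gene of limb muscle precursors and dorsal spinal cord, had none in CpG context, and KAZALD1, a secreted insulin-like growth factor binding protein related gene, had 1 in an intron that was higher in high OC skin (54.7% ± 4.04, SD, n = 3) than in low OC skin (38.7% ± 5.13, SD, n = 3), on 5 to 9 reads. Of 12 genes that lie near TLX1 in mammals, 2 had a listed CpG site. The other was PAX2, a paired-box factor of kidney and eye development, with 2 lower and 7 higher sites that averaged 43.8% ± 1.58 (SD, n = 3) compared with 30.3% ± 2.52 (SD, n = 3). Within 100000 bases of TLX1, a listed CpG site named LOC103004732 stood beside that of KAZALD1. It lay 79639 bases away on the LBX1 side and, like the TLX1 sites, was lower in high OC skin. Its levels were 15%, 18% and 31% in high OC and 38%, 44% and 42% in low OC skin, on 8 to 20 reads.

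Among 14 genes of the TLX family, its DNA-binding partners, spleen development and retinoic acid metabolism, 10 had a listed CpG site, and 8 of these had more higher than lower sites, as did 49.6% of all 6197 genes with a listed CpG site. Their 36 sites were 10 lower and 26 higher, where 49.2% of all listed CpG sites were lower. These counts rest on few sites for many of the genes. MEIS2, NKX2-5 and PBX3 had 1 higher site each, TCF21 had 1 lower site and BARX1 had 2 higher sites. MEIS1 held 8 of the 26 higher sites. The paralogue TLX2, a factor of enteric neurons, had 1 lower and 5 higher sites at 20.4% ± 2.71 (SD, n = 3) compared with 10.8% ± 1.42 (SD, n = 3). TLX3, a factor of excitatory neurons of the spinal cord, had 2 lower and 3 higher sites, with means of 11.7% ± 0.987 (SD, n = 3) and 10.8% ± 0.721 (SD, n = 3). Neither paralogue had its sites in 1 direction, and both had listed promoter sites, 3 for TLX2 and 5 for TLX3, where TLX1 had none.

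The homeobox partner MEIS1 had 8 sites, all higher, at 94.2% ± 2.44 (SD, n = 3) compared with 77.9% ± 1.09 (SD, n = 3). WT1, a zinc finger factor that mouse needs for spleen as well as kidney, had 2 lower and 4 higher sites at 47.4% ± 2.59 (SD, n = 3) compared with 39.2% ± 2.93 (SD, n = 3). NKX3-2, a homeobox factor of spleen and skeleton in mouse, and TCF21, a basic helix-loop-helix factor with 1 lower site, were the genes of the list with mostly lower sites. The NKX3-2 sites, 4 lower and 1 higher, averaged 7.53% ± 1.33 (SD, n = 3) compared with 20.7% ± 4.02 (SD, n = 3).

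Among 276 named genes with at least 10 listed CpG sites, 11 had lower sites only and 14 higher sites only. TLX1 was second of these 11 by its number of sites, after DLGAP2, a postsynaptic scaffold gene, with 31 sites that lay between 983529 and 1153246 on its own scaffold and averaged 60.9% ± 1.93 (SD, n = 3) compared with 86.1% ± 2.99 (SD, n = 3). The gene nearest to TLX1 in the mean levels of the 6 samples was FAM170B, with a root mean square difference of 9.12 points. Its 13 sites, all in an exon and all lower, averaged 12.0% ± 4.74 (SD, n = 3) compared with 38.5% ± 3.08 (SD, n = 3). High OC replicate 2 was the lowest sample in FAM170B, at 6.62%, and the highest of its group in TLX1. ATP9B, a gene of the phospholipid flippase family, came next, at 10.5 points, but its 10 sites were 5 lower and 5 higher. NUDCD3, a co-chaperone gene, followed at 10.7 points, with 9 lower and 1 higher sites at 28.5% ± 2.46 (SD, n = 3) compared with 49.1% ± 9.31 (SD, n = 3).

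**Figure D5:**
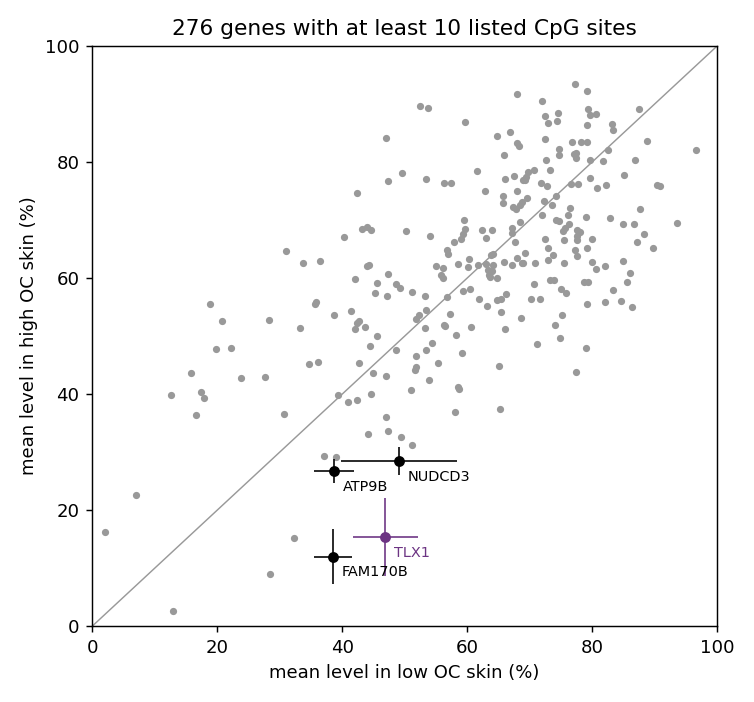
Mean level over listed CpG sites in high OC (y axis, %) against low OC skin (x axis, %) for the 276 named genes with at least 10 listed CpG sites, 1 point per gene. TLX1 (purple) and the 3 genes nearest to it (black) carry bars of 1 SD over the 3 samples of a group, and the grey line marks equal levels. TLX1 lies at 46.9% and 15.3%, below most other genes on the y axis.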

How the data were processed

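The authors deposited, per the file headers, a methylation level per cytosine and sample as a fraction rounded to 2 decimals, the coverage as a count of reads, a difference of group means, a p-value and a class. Bismark is named in the submitters' processing notes, with no version, and nothing used here names the build, annotation or filters. The complete lists of 32682 CpG, 1742 CHG and 3216 CHH sites were used. The first 651 unselected CpG sites, on another scaffold, gave the share that the authors called, 2.0%. Other deposited tables were not analysed here.

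Levels are given as percent. Methylated reads were taken as level times coverage, rounded, and gave back the deposited level within rounding at 46 of 46 sites. Differences are high OC minus low OC. Group values are means and SDs over samples of unweighted site means. Median coverage per sample was 14 to 23 reads at the TLX1 CpG sites, against 12 to 14 reads over all listed CpG sites. These medians use coverage as deposited, with the doubled coverage of 10 TLX1 sites not halved. Wilson intervals are at 95%, and a count of 0 allows 3 reads of the total. Neither covers amplification.

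The members, gene lists and rules were chosen with earlier results of these data known, and read stacks after the values were seen. Named sites were the 3 with the largest difference per location and direction, ends of runs and extremes of coverage, and other sites were named after their values were seen. Genes most like TLX1 were the 3 with the smallest root mean square difference of the 6 sample means, among named genes with at least 10 listed CpG sites. RefSeq symbols matched 82.0% of the names in the CpG list. The grouping steps were tested on simulated data whose groups lay farther apart than the distances allowed within a group. That test could not show whether stacks as close as those of TLX1 are told apart. Alternatives were coverage minimums, a minimum difference, weighting by reads, other gaps and distances, merged strands, left-out sites and left-out samples. Python 3.11.15, numpy 2.4.6, pandas 2.3.3, scipy 1.17.1 and matplotlib 3.10.9 were used.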

Additional observations from a re-analysis of the deposited data

How the results depend on the processing

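The difference over the 28 TLX1 CpG sites kept its sign under all alternatives run. Since all 28 were lower with groups that did not overlap, leaving out sites or samples could not have changed the sign. It was -55.3 points over the 2 sites with a difference of 50 points or more, for all sites and for the longest run alike, a setting that picks large differences. With single samples left out it ran from -34.9 to -28.2 points over all sites, from -35.2 to -27.9 points in the longest run, from -22.9 to -18.5 points at the sites with no gene name and from -40.0 to -24.3 points at the CHH site. The number of lower sites was 17 with at least 10 reads in each sample, 7 with at least 20 reads and 2 with a difference of at least 50 points, and every site left was lower. It was 28 with each sample left out. That every site stayed lower was fixed by the same lack of overlap. The sites with no gene name differed by -9.17 points with at least 20 reads in each sample, where 4 sites were left, by -16.7 points with reads summed, and by -26.7 points within 10000 bases, where the higher sites fall outside. None of them differed by 50 points. With 1 value per read stack, added after the data were seen, the TLX1 difference was -33.0 points over 7 stacks. No paired analysis was possible because the labels give no replicate numbers that the groups share and no test was run. Depth limits all single-site values: at 5 reads a level moves in steps of 20 points.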
